A study of Mus musculus with 9 samples.

Results

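The 10 genes described here mark the vessels of the lymph node: Glycam1, Madcam1 and Chst4 for high endothelial venules, Pecam1, Cdh5 and Kdr for blood vessels, and Lyve1, Prox1, Flt4 and Pdpn for lymphatic vessels. They were taken by symbol from the 37801 entries of the expression table that could be used. Each symbol stood on 1 row, and all 10 genes were among the 16587 genes that were tested. RNA was sequenced from 3 groups with 3 libraries each. Tyr-NrasQ61K mice (strain FVB/NJ, cross) carry an activated Nras transgene that the tyrosinase promoter drives in melanocytes, and their libraries are labelled Cre-negative with wild-type MHCII. Tyr-NrasQ61K MHCII-KO mice, called MHCII-KO below, are of the same cross with the same transgene and are labelled Cre-positive with MHCII knocked out. The labels do not say which Cre was used or in which cells. Wild-type (WT) mice were FVB/NJ without the transgene, and the protocols describe the wild-type controls as albino littermates. The age of the animals, the nodes taken and the number of animals behind a library are not stated in the labels or the paper's methods, so a p-value here speaks only of the spread between these samples. The labels call the source nevus melanocytes, whereas the paper describes lymph nodes. Lymphocyte RNA was present in every library, with Cd79b at 47.0 to 228.5 FPKM, and the samples are called nodes below, after the paper.

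High endothelial venules are the post-capillary vessels through which lymphocytes leave the blood and enter the node. Their plump endothelial cells carry sulfated and fucosylated sugars that L-selectin on lymphocytes binds, and their upkeep depends on lymphotoxin, which signals through the lymphotoxin beta receptor and NF-kappaB. Lymphatic vessels bring fluid, antigen and dendritic cells into the node and carry lymphocytes out of it, and Prox1 sets the identity of their endothelial cells. Factors of the ETS family, such as Erg and Fli1, bind the regulatory regions of many endothelial genes.

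The sequences upstream of 2 of the high endothelial genes are shown because Glycam1 was, of the 10 genes, the one farthest below WT in the NrasQ61K groups and Madcam1 stayed near it. They are the 250 bases before the start of the gene in RefSeq (GRCm38.p6), for Glycam1 on the minus strand at chr15:103565082-103565331 and for Madcam1 on the plus strand at chr10:79664309-79664558. Capitals mark matches, on either strand, to an NF-kappaB motif (GGG, any 2 bases, T, any 2 bases, CC) or an ETS motif (CNGGAAG).
Glycam1: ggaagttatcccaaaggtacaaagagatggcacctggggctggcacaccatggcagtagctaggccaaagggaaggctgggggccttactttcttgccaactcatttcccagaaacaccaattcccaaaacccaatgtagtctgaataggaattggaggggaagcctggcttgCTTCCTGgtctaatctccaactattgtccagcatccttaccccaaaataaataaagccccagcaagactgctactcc
Madcam1: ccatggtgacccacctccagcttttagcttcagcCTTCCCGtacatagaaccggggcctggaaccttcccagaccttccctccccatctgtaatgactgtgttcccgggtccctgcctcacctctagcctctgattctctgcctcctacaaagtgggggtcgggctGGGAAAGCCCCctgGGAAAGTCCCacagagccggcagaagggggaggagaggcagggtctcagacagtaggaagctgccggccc
The Glycam1 window held 1 ETS match, beginning at base -77 from the start, and no NF-kappaB match. The Madcam1 window held 1 ETS match, at -216, and 3 NF-kappaB matches, at -84, -83 and -70, all on the strand opposite to the gene, and the first and the second of them overlap. The Chst4 window held neither motif. Of 32851 such windows of the mouse genome, 15.9% held the NF-kappaB motif and 26.6% the ETS motif. RefSeq windows were matched for 7 of the 10 genes. Kdr had 2 NF-kappaB matches, Pdpn had 1, Flt4 had 1 ETS match, and each of the 2 Prox1 windows had 1 ETS match, one of them with 1 NF-kappaB match besides. These are matches of letters and not binding sites.

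Values are FPKM, fragments scaled to transcript length and to library size, so that levels can be compared between genes. In WT nodes Glycam1 was by far the most abundant of the 10 genes at 854.5 ± 395.4 FPKM (SD, n = 3). Pecam1 averaged 64.5, Lyve1 27.8, Kdr 16.8, Cdh5 12.7, Flt4 6.45, Prox1 4.09, Chst4 3.88, Pdpn 3.28 and Madcam1 1.90 FPKM in WT. Glycam1 and Pecam1 at the top and Madcam1 at the bottom were clear of their neighbours in every WT library, and the other neighbours in this order overlapped. Testing was by limma on log2(FPKM + 1), over genes that reached 1 FPKM in 3 or more libraries, and the word called is used for a Benjamini-Hochberg adjusted p no larger than 0.05. The pseudocount of 1 shrinks the fold changes of weakly expressed genes such as Madcam1 and Chst4. The 3 comparisons with WT share the same WT libraries.

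On the first principal component of all genes (32.1% of the variance), 2 libraries stood apart, replicate 2 of Tyr-NrasQ61K and replicate 2 of MHCII-KO. On the second (14.6%), Tyr-NrasQ61K replicate 3 was alone at -99.95, with all other libraries at -12.9 or above. Relative to WT replicate 1, an estimate of depth was 0.871 for MHCII-KO replicate 2 and 1.38 to 1.69 for WT replicates 2 and 3, Tyr-NrasQ61K replicate 1 and MHCII-KO replicate 3, and it was not clear for the other 3 libraries. Tyr-NrasQ61K replicate 2 was the lowest of the 9 libraries for 8 of the 10 vessel genes, and MHCII-KO replicate 2 was the lowest for the remaining 2, Madcam1 and Pdpn. WT replicate 2 was the lowest WT library for all 10 genes. WT replicate 3 was the highest of the 9 for 7 genes. For each of the 10 genes, the fold change of both groups together is therefore also given without replicate 2 of both NrasQ61K groups.

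**Figure D1:**
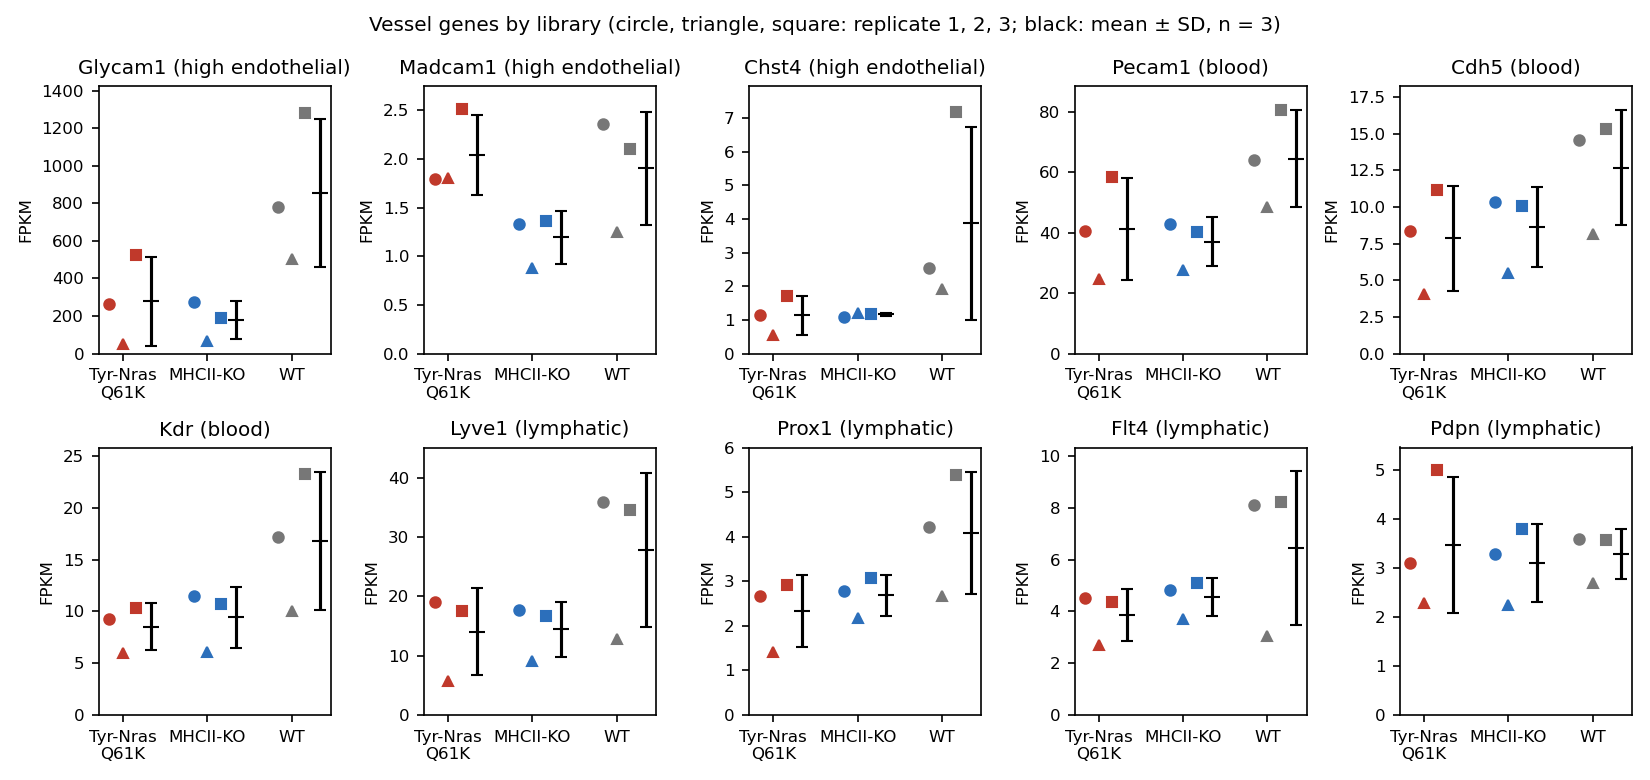
FPKM of the 10 vessel genes (y axis, from 0) in Tyr-NrasQ61K (red), Tyr-NrasQ61K MHCII-KO (blue) and WT (grey) libraries. Circles, triangles and squares are replicates 1, 2 and 3, and black bars give the mean ± SD (n = 3). For Chst4 all 6 NrasQ61K libraries lie at or below 1.72 FPKM and the WT libraries at or above 1.91.

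In the main fit, which had no replicate term and no library weights, none of the 10 genes was called in any of the comparisons. With a replicate block or library weights several were called, as were many more of all genes (given further below). In the main fit, all 10 stood below 0 on the log2 scale when both NrasQ61K groups were set against WT. In that comparison the median of the 10 was -0.66, against -0.16 for all 16587 genes, of which 63.5% stood below 0. Median-ratio scaling moved the median of all genes to 0.0291, and with it Glycam1 to -1.96, Chst4 to -0.88, Kdr to -0.58 and Pecam1 to -0.49. Glycam1, Chst4, Kdr and Pecam1, 4 of the 10, were lower at an unadjusted p under 0.05, as were 15.2% of all genes. The share of all genes called at the adjusted threshold was 0.398% in this comparison, 0.235% in Tyr-NrasQ61K against WT, 0.145% in MHCII-KO against WT and 0.0482% in MHCII-KO against Tyr-NrasQ61K. At an unadjusted p under 0.05, 3 of the 10 genes were lower in Tyr-NrasQ61K than in WT (8.43% of all genes) and 2 in MHCII-KO than in WT (11.5% of all genes). None passed an unadjusted p under 0.05 between MHCII-KO and Tyr-NrasQ61K. FPKM are shares of the RNA of a library. In whole nodes, fewer cells of a type, a smaller share of them among more other cells, and less RNA per cell cannot be told apart. The paper reports that Tyr-NrasQ61K nodes were enlarged and held more nonmelanocyte cells, T cells among them.

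Of the high endothelial genes, Glycam1 encodes a secreted mucin that carries ligands of L-selectin (chromosome 15, 103562759 to 103565081, mm10). Tyr-NrasQ61K nodes held 261.7, 50.7 and 524.3 FPKM of Glycam1, MHCII-KO nodes 272.2, 69.3 and 191.6, and WT nodes 780.2, 501.5 and 1282. All 3 MHCII-KO libraries and 2 of the 3 Tyr-NrasQ61K libraries lay below every WT library, and Tyr-NrasQ61K replicate 3 lay just above WT replicate 2. The log2 fold change was -2.05 ± 0.88 (SE) in Tyr-NrasQ61K, -2.36 ± 0.88 in MHCII-KO and -2.21 ± 0.76 in both groups together, with limma adjusted p of 0.326, 0.329 and 0.202. The 95% interval of the last ran from -3.95 to -0.46. Without replicate 2 of both NrasQ61K groups, the value for both groups was -1.45 (adjusted p = 0.271 from limma), so these libraries moved it by more than 1.5 times on the linear scale. For Tyr-NrasQ61K alone it was -1.10 without its replicate 2 and -2.77 without its replicate 3, and for MHCII-KO alone it was -1.79 without its replicate 2.

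Chst4 encodes the sulfotransferase that adds sulfate to the L-selectin ligands of high endothelial cells (chromosome 8, 110029153 to 110039740). Chst4 was at 1.15, 0.543 and 1.72 FPKM in Tyr-NrasQ61K, at 1.10, 1.21 and 1.18 in MHCII-KO and at 2.55, 1.91 and 7.17 in WT libraries. It was the only one of the 10 genes whose 6 NrasQ61K libraries all lay below all 3 WT libraries, which 8.44% of all genes did. The log2 fold change was -1.08 in Tyr-NrasQ61K, -1.02 in MHCII-KO and -1.05 ± 0.33 in both together (adjusted p = 0.307, 0.329 and 0.191 from limma). WT replicate 3 stood well above the other 2 WT libraries. Without it the value for both groups was -0.60, the smallest of all settings tried, and without replicate 2 of both NrasQ61K groups it was -0.95.

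Madcam1 encodes the vascular ligand of the integrin α4β7, found on high endothelial venules of mucosal nodes (chromosome 10, 79664559 to 79668537). It was at 1.80, 1.80 and 2.51 FPKM in Tyr-NrasQ61K, at 1.33, 0.881 and 1.36 in MHCII-KO and at 2.36, 1.25 and 2.10 in WT libraries, near the limit of 1 FPKM used for testing. Tyr-NrasQ61K overlapped WT, with a log2 fold change of 0.08 and a 95% interval from -0.40 to 0.55, and MHCII-KO overlapped WT at -0.39. For both groups together it was at -0.16, and at -0.0767 without replicate 2 of both NrasQ61K groups. All 3 MHCII-KO libraries lay below all 3 Tyr-NrasQ61K libraries, which 3.07% of all genes did. This difference was -0.47 ± 0.21 on the log2 scale and was not called (adjusted p = 0.9999 from limma). Glycam1 (-0.32) and Chst4 (0.05) overlapped between MHCII-KO and Tyr-NrasQ61K, with 95% intervals from -2.33 to 1.69 and from -0.81 to 0.92.

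Among the blood vessel genes, Pecam1 encodes an adhesion molecule of endothelial junctions that platelets and many leukocytes also carry. Pecam1 was at 40.7, 24.6 and 58.5 FPKM in Tyr-NrasQ61K, at 43.0, 27.8 and 40.3 in MHCII-KO and at 64.1, 48.7 and 80.7 in WT libraries. The MHCII-KO libraries did not overlap WT, whereas Tyr-NrasQ61K replicate 3 lay above WT replicate 2. In all, 3 of the 10 genes, Glycam1, Chst4 and Pecam1, were lower without overlap in MHCII-KO than in WT (23.4% of all genes), and 1, Chst4, was lower in Tyr-NrasQ61K than in WT (10.5% of all genes). For both groups the log2 fold change of Pecam1 was -0.73 ± 0.32 (adjusted p = 0.228 from limma) and -0.48 without replicate 2 of both NrasQ61K groups.

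Cdh5, or VE-cadherin, is the cadherin of endothelial junctions and is largely restricted to endothelium. Its FPKM of 8.35, 4.07 and 11.2 in Tyr-NrasQ61K, 10.3, 5.47 and 10.1 in MHCII-KO and 14.6, 8.17 and 15.3 in WT libraries overlapped between the groups. The log2 fold change in both groups was -0.59 ± 0.34 (adjusted p = 0.314 from limma), and -0.28 without replicate 2 of both NrasQ61K groups. The gene Gm29682 overlaps Cdh5 on the opposite strand, and whether the counting used strand is not stated, so their reads may not be separable. Kdr, the main signalling receptor of VEGF-A, was at 9.25, 5.999 and 10.3 FPKM in Tyr-NrasQ61K, at 11.5, 6.06 and 10.7 in MHCII-KO and at 17.2, 10.01 and 23.3 in WT libraries. WT replicates 1 and 3 lay above all 6 NrasQ61K libraries for Kdr, and WT replicate 2 lay below 3 of them. Its log2 fold change was -0.86 in Tyr-NrasQ61K, -0.74 in MHCII-KO and -0.80 ± 0.31 in both (adjusted p = 0.323, 0.337 and 0.213 from limma), and it was -0.57 for both without replicate 2 of both NrasQ61K groups.

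None of the lymphatic genes passed even an unadjusted p under 0.05 for both groups, and WT replicate 2 lay within the range of the NrasQ61K libraries for each of them. Lyve1, a hyaluronan receptor of lymphatic endothelium and some macrophages, was at 19.0, 5.69 and 17.5 FPKM in Tyr-NrasQ61K, at 17.6, 9.17 and 16.6 in MHCII-KO and at 36.0, 12.8 and 34.6 in WT libraries. WT replicates 1 and 3 lay above all 6 NrasQ61K libraries, and WT replicate 2 lay below 4 of them. The log2 fold change for both groups was -0.89 ± 0.47 (adjusted p = 0.283 from limma). Prox1, the transcription factor that sets lymphatic identity, was at 2.66, 1.41 and 2.91 FPKM in Tyr-NrasQ61K, at 2.80, 2.19 and 3.09 in MHCII-KO and at 4.22, 2.67 and 5.40 in WT libraries, again with WT replicate 2 among the NrasQ61K values. Its log2 fold change was -0.52 ± 0.23 (adjusted p = 0.234 from limma). Gm28172 and Prox1os overlap Prox1 on the opposite strand, with the same limit as for Cdh5.

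Flt4, the receptor of VEGF-C and VEGF-D, was at 4.51, 2.70 and 4.36 FPKM in Tyr-NrasQ61K, at 4.84, 3.72 and 5.11 in MHCII-KO and at 8.10, 3.04 and 8.22 in WT libraries. For both groups it stood at -0.44 ± 0.29 on the log2 scale (adjusted p = 0.368 from limma), and WT replicate 2 was lower than 5 of the 6 NrasQ61K libraries. Pdpn encodes podoplanin, a mucin-like protein of lymphatic endothelium that fibroblastic reticular cells also carry. Pdpn was at 3.10, 2.29 and 4.995 FPKM in Tyr-NrasQ61K, at 3.29, 2.24 and 3.79 in MHCII-KO and at 3.59, 2.70 and 3.56 in WT libraries. It was the gene nearest to no difference, at -0.03 with a 95% interval from -0.54 to 0.48, and its sign turned under several settings, among them median-ratio scaling (0.15). Without replicate 2 of both NrasQ61K groups, the values of the 4 lymphatic genes for both groups were -0.49 for Lyve1, -0.36 for Prox1, -0.29 for Flt4 and 0.15 for Pdpn.

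**Figure D2:**
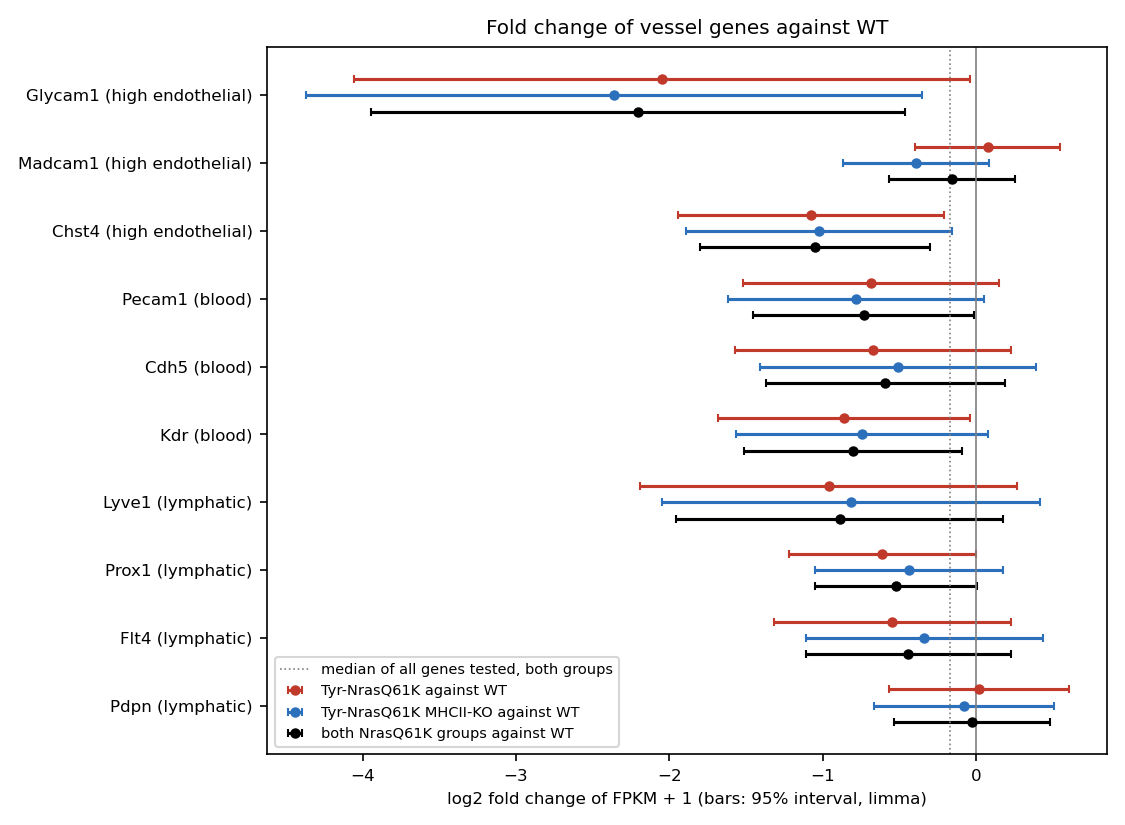
Log2 fold change of FPKM + 1 against WT (x axis) for the 10 vessel genes (y axis), for Tyr-NrasQ61K (red), Tyr-NrasQ61K MHCII-KO (blue) and both together (black). Bars are 95% intervals from limma, and the dotted line is the median of all genes for both groups (-0.16). The point of Glycam1 for both groups is the farthest to the left (-2.21), and Madcam1 and Pdpn lie near 0.

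From library to library the 10 genes moved largely together, and the genes as a whole shifted the same way in the libraries at either end. Relative to its own mean over the 9 libraries, 9 of the 10 genes were below that mean in Tyr-NrasQ61K replicate 2 (67.0% of all tested genes), every gene was in MHCII-KO replicate 2 (73.0%) and 7 of 10 were in WT replicate 2 (60.7%). None of the 10 was below it in WT replicates 1 and 3 (30.6% and 31.6% of all tested genes), and 2 were in Tyr-NrasQ61K replicate 3 (20.3%). The median deviation of the 10 genes was -0.77 in Tyr-NrasQ61K replicate 2, where that of all tested genes was -0.27, and -0.57 in MHCII-KO replicate 2, where that of all tested genes was -0.26, on the log2 scale. In WT replicates 1 and 3 it was 0.57 and 0.78 for the 10 genes and 0.22 in both for all tested genes. The part of this shift of all genes in the vessel results was not tested beyond the median-ratio scaling given above. Among the 10, the pair with the most similar profile was Glycam1 and Pecam1, with a root mean square difference of 0.144 between the profiles scaled to an SD of 1 over 9 libraries, and Lyve1 and Cdh5 were next at 0.251. Madcam1 stood farthest from the rest, at 0.778 or more from each other gene, and Pdpn was at 0.639 or more.

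**Figure D3:**
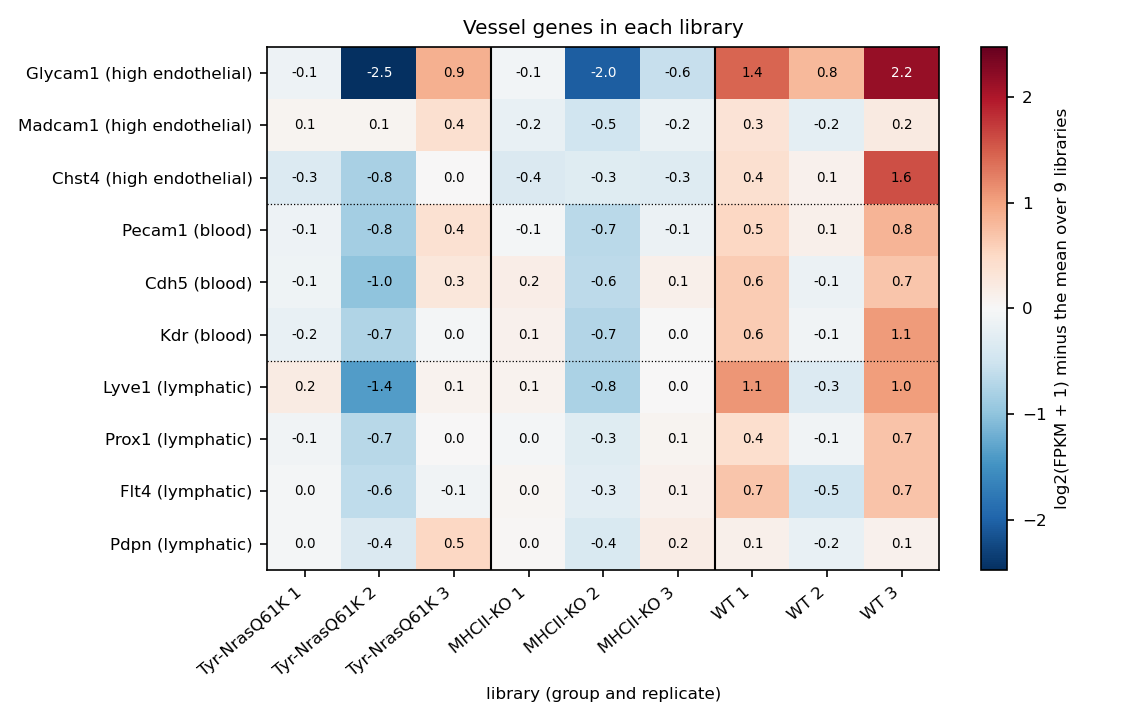
Deviation of log2(FPKM + 1) of each vessel gene (rows) from its mean over 9 libraries (colour, red above and blue below), by library (columns, Tyr-NrasQ61K, MHCII-KO and WT replicates 1 to 3). The column of MHCII-KO replicate 2 is below the mean in 10 of 10 rows, and the columns of WT replicates 1 and 3 are above it in every row.

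To set each gene beside an endothelial gene of the same library, it was divided by Cdh5. A ratio shows a difference from Cdh5, and a single gene need not stand for the endothelium as a whole. Glycam1 was 31.4, 12.5 and 46.9 times the FPKM of Cdh5 in Tyr-NrasQ61K, 26.4, 12.7 and 19.1 times in MHCII-KO and 53.6, 61.4 and 83.7 times in WT libraries. All 6 NrasQ61K libraries thus lay below all 3 WT libraries, and WT replicate 2, which had been the lowest WT library for Glycam1 itself, was not the lowest in the ratio. On the log2(FPKM + 1) scale the ratio was 1.62 lower in both groups together, at a mean of 4.29 ± 0.81 in NrasQ61K libraries (SD, n = 6) and of 5.91 ± 0.34 in WT libraries (SD, n = 3), with an exact two-sided permutation p of 0.0238, where the smallest that 84 splits allow is 0.0119. The p is not adjusted for the 9 ratios tested. Of all genes, 2.42% lay lower without overlap in this ratio. In the single groups, the ratio was lower by 1.38 in Tyr-NrasQ61K and by 1.85 in MHCII-KO (exact permutation p = 0.1 for each, the smallest that 3 against 3 can give), without overlap in either, as for 2.74% and 8.24% of all genes. Without replicate 2 of both NrasQ61K groups the difference was -1.17 (exact permutation p = 0.0571), and with Pecam1 in place of Cdh5, a choice made after seeing the data, it was -1.47 (exact permutation p = 0.0476). Leaving libraries out allows fewer than 84 splits, so such a p, here and below, is not directly comparable with that of all 9 libraries.

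The other ratios were closer to WT. Chst4 was 0.138, 0.134 and 0.154 times the FPKM of Cdh5 in Tyr-NrasQ61K, 0.106, 0.221 and 0.117 times in MHCII-KO and 0.175, 0.233 and 0.468 times in WT libraries. In these plain ratios the groups overlapped through MHCII-KO replicate 2. On the log2(FPKM + 1) scale, Tyr-NrasQ61K replicates 1 (-2.12) and 2 (-1.71) also lay above WT replicate 1 (-2.13). The log2 difference of Chst4 was -0.46 (exact permutation p = 0.19) with a pseudocount of 1 and -0.85 (exact permutation p = 0.0238) with a pseudocount of 0.1, and -0.67 (exact permutation p = 0.0571) without replicate 2 of both NrasQ61K groups. Madcam1 was 0.215, 0.443 and 0.225 times Cdh5 in Tyr-NrasQ61K, against 0.162, 0.153 and 0.137 times in WT, and did not overlap between these groups, as for 21.8% of all genes in this direction. MHCII-KO libraries had 0.129, 0.161 and 0.136 times for Madcam1. In these plain ratios, replicate 2 was within the range of WT and replicates 1 and 3 were just below it. On the log2(FPKM + 1) scale, MHCII-KO replicate 2 (-1.78) lay above the WT libraries (-2.40 to -2.03). Replicates 1 and 3 (-2.28 and -2.22) lay within the range of WT on that scale. Pdpn relative to Cdh5 was higher without overlap in Tyr-NrasQ61K than in WT too, as for 21.8% of all genes. For both groups this ratio was 0.56 higher (exact permutation p = 0.0357, not adjusted for the 9 ratios). It was 0.43 higher (p = 0.0857, exact) without replicate 2 of both NrasQ61K groups. Not divided, Pdpn was at -0.03 and Cdh5 at -0.59 for both groups. The ratios of Pecam1, Kdr, Lyve1, Prox1 and Flt4 differed from WT by -0.30 to 0.15 for both groups, with exact permutation p from 0.167 to 0.714. Without replicate 2 of both NrasQ61K groups they ran from -0.29 to -0.0113, with Kdr at -0.29 (exact permutation p = 0.0286) and p of 0.2 or more for the other 4.

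**Figure D4:**
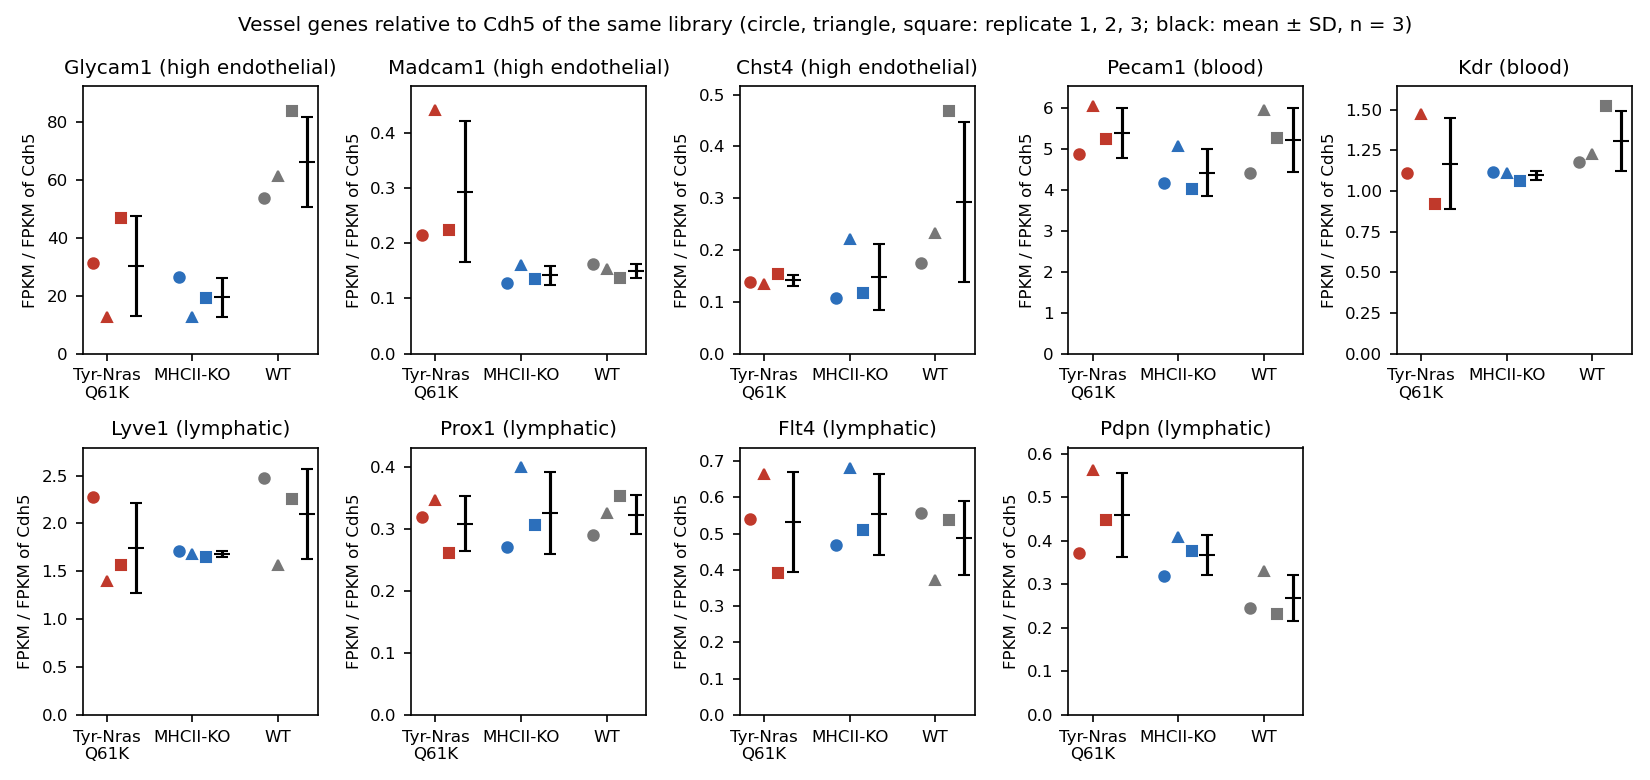
FPKM of 9 vessel genes divided by the FPKM of Cdh5 of the same library (y axis, from 0) in Tyr-NrasQ61K (red), MHCII-KO (blue) and WT (grey) libraries, with mean ± SD (n = 3). For Glycam1 the NrasQ61K libraries lie between 12.5 and 46.9 and the WT libraries between 53.6 and 83.7.

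Larger lists of genes of each vessel type were set beside the 10. Some of their genes, such as Gcnt1, Fli1 and Pecam1, are also expressed by leukocytes, so the counts and medians do not speak of vessels alone. Of 25 tested high endothelial genes, which include the 3 above, none was called for both groups against WT. At an unadjusted p under 0.05, 8 were lower (15.2% of all genes) and none was higher. In all, 22 stood below 0 (63.5% of all genes), and the median was -0.41. Without replicate 2 of both NrasQ61K groups, 5 were lower at an unadjusted p under 0.05, 23 stood below 0, and the median was -0.35, where 9.31% of all genes were lower at that p and the median of all genes was -0.0728. Besides Glycam1 and Chst4, the 4 genes of the list with the smallest unadjusted p were Fut7, Gcnt1, Emcn and Ccl21a. Fut7, the fucosyltransferase that completes the ligand, was at 3.48, 2.67 and 4.50 FPKM in Tyr-NrasQ61K, at 3.96, 1.71 and 3.36 in MHCII-KO and at 6.71, 5.47 and 7.85 in WT libraries. Its values were lower with no overlap, as for 8.44% of all genes (-0.87, adjusted p = 0.164 from limma). Gcnt1, which branches the sugar chains and is also found in lymphocytes, was at 8.30, 4.79 and 9.59 in Tyr-NrasQ61K, at 7.15, 6.96 and 7.03 in MHCII-KO and at 14.3, 10.6 and 15.5 in WT libraries, again with no overlap (-0.81, adjusted p = 0.168 from limma). Emcn, or endomucin, a mucin of venous endothelium, had -1.07 (adjusted p = 0.169 from limma), with 1.73 to 3.44 FPKM in Tyr-NrasQ61K, 2.08 to 3.67 in MHCII-KO and 3.54 to 9.04 in WT. Ccl21a, the chemokine that brings T cells and dendritic cells into the node, had -0.93 (adjusted p = 0.196 from limma) and is uncertain because near-identical copies of the gene can share its reads. Selp, P-selectin, was among the 3 genes of the list above 0 (0.21), and Ackr1, a chemokine receptor of venules, was at -0.27.

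Of 27 tested blood endothelial genes none was called. At an unadjusted p under 0.05, 10 were lower (15.2% of all genes) and none was higher. In all, 24 stood below 0 (63.5% of all genes), and the median was -0.57. In the 7 libraries left without replicate 2 of both NrasQ61K groups, 4 were lower at that p (9.31% of all genes) and the median was -0.37. Gpihbp1, which holds lipoprotein lipase on capillaries, was at 1.74 to 2.66 FPKM in Tyr-NrasQ61K, at 1.88 to 2.49 in MHCII-KO and at 2.94 to 4.28 in WT libraries (-0.59, adjusted p = 0.169 from limma). The ETS factors had -1.11 for Erg and -0.72 for Fli1, which leukocytes also express, and Ptprb, the phosphatase of VE-cadherin and Tie2, had -0.69 (adjusted p = 0.203, 0.195 and 0.2 from limma). Not every gene of the list was lower. Vwf was at 6.61, 7.12 and 7.72 FPKM in Tyr-NrasQ61K, at 5.56, 5.63 and 6.55 in MHCII-KO and at 5.38, 5.82 and 5.82 in WT libraries. Sox18 was at 1.82, 5.36 and 2.57 in Tyr-NrasQ61K, at 2.32, 2.69 and 2.78 in MHCII-KO and at 2.63, 1.20 and 2.93 in WT libraries. Of 21 tested lymphatic genes none was called. At an unadjusted p under 0.05, 5 were lower (15.2% of all genes) and none was higher. In all, 20 stood below 0 (63.5% of all genes), and the median was -0.43. In the same 7 libraries, 1 was lower at that p (9.31% of all genes) and the median was -0.27. Ackr4, a scavenger of CCL19 and CCL21 on the lymphatic endothelium of the node's ceiling, came nearest to the threshold. It was at 1.04, 0.565 and 1.13 FPKM in Tyr-NrasQ61K, at 0.893, 0.533 and 0.707 in MHCII-KO and at 3.94, 2.04 and 3.59 in WT libraries. All NrasQ61K libraries lay below all WT libraries, as for 8.44% of all genes (-1.19 ± 0.20, adjusted p = 0.0581 from limma). Mmrn1 (multimerin 1) had -1.55, Stab2 (a hyaluronan receptor of sinuses) -0.79 and Sema3a (a guidance factor) -0.76, with limma adjusted p of 0.207, 0.225 and 0.207.

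Among 14 tested vessel growth factors and receptors, of which Kdr and Flt4 are also among the 10, none was called. At an unadjusted p under 0.05, 4 were lower (15.2% of all genes), 12 stood below 0 (63.5% of all genes), and the median was -0.41. In the 7 libraries, 1 was lower at that p (9.31% of all genes) and the median was -0.31. Vegfa, the ligand of Kdr, was at 7.52, 8.82 and 8.76 FPKM in Tyr-NrasQ61K, at 7.56, 9.86 and 7.23 in MHCII-KO and at 13.2, 10.8 and 12.6 in WT libraries. Its values were lower with no overlap, as for 8.44% of all genes (-0.51 ± 0.16, adjusted p = 0.191 from limma). Unlike the vessel genes, Vegfa was not lowest in Tyr-NrasQ61K replicate 2 or MHCII-KO replicate 2. Vegfc, the ligand of Flt4, was at 2.29, 1.21 and 2.31 in Tyr-NrasQ61K, at 2.14, 1.67 and 1.86 in MHCII-KO and at 2.98, 0.862 and 1.79 in WT libraries, which overlapped (0.07). Nrp1, a VEGF co-receptor, had -0.63. The lymphotoxin genes Lta and Ltb, which lymphocytes express, had -0.49 and -0.52 (adjusted p = 0.228 and 0.25 from limma), and their receptor Ltbr was at -0.01.

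**Figure D5:**
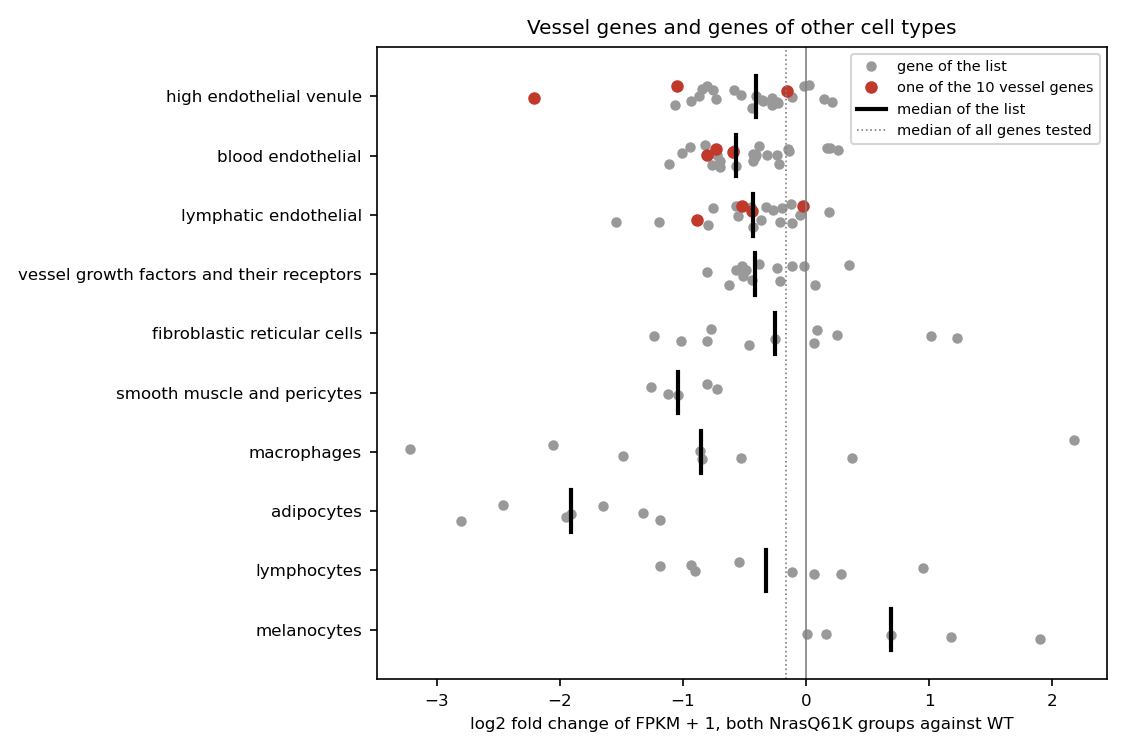
Log2 fold change of FPKM + 1 for both NrasQ61K groups against WT (x axis) of every tested gene of 10 lists (rows). Red points are the 10 vessel genes, grey points other genes, black bars the median of each list (-0.41, -0.57 and -0.43 for the vessel lists) and the dotted line the median of all genes (-0.16). The adipocyte points lie farthest to the left as a list (median -1.91).

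Genes of other cell types were summed by list, and only the adipocyte and melanocyte sums lay apart from WT in both NrasQ61K groups. A sum can hide genes that moved in opposite directions. The part of other cell types in the vessel results was not tested. The summed FPKM of 7 adipocyte genes, Fabp4 the highest, was 39.0 to 182.0 in Tyr-NrasQ61K, 59.9 to 167.8 in MHCII-KO and 269.3 to 497.3 in WT libraries, without overlap. Lep and Plin1 were lower for both groups (limma adjusted p of 0.0282 and 0.0445). Lep was at 0.506 FPKM at most in NrasQ61K libraries and so passed the filter only through the WT libraries. Without replicate 2 of both NrasQ61K groups, 0 adipocyte genes were called. WT replicate 2 had the highest adipocyte sum and the lowest WT level of all 10 vessel genes. The sum of 9 macrophage genes, C1qa the highest, was 132.4 to 224.1 FPKM in Tyr-NrasQ61K, 129.9 to 260.6 in MHCII-KO and 209.9 to 514.4 in WT libraries, with Siglec1 listed at 0 in WT replicates 2 and 3. Smooth muscle and pericyte genes, which accompany vessels, summed to 19.96 to 52.5 in Tyr-NrasQ61K, 27.8 to 37.4 in MHCII-KO and 44.3 to 90.3 in WT, and the 5 tested had a median of -1.04. Platelet and megakaryocyte genes, Itga2b the highest, summed to 7.45 to 9.78 in Tyr-NrasQ61K, 7.90 to 10.4 in MHCII-KO and 6.44 to 16.8 in WT. The 11 fibroblastic reticular cell genes, Cxcl12 the highest, summed to 273.6 to 316.0 in Tyr-NrasQ61K, 271.7 to 313.0 in MHCII-KO and 203.1 to 429.4 in WT.

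Lymphocyte genes, Cd79b the highest, summed to 321.5 to 746.6 FPKM in Tyr-NrasQ61K, 370.3 to 595.6 in MHCII-KO and 566.4 to 765.4 in WT libraries. The sum of 7 melanocyte genes, Mitf the highest, was 12.5 to 17.0 in Tyr-NrasQ61K, 6.79 to 11.7 in MHCII-KO and 3.89 to 5.67 in WT. Dct, a pigment enzyme, was higher for both groups (1.90, adjusted p = 0.0362 from limma). It was at 0.0508 FPKM at most in WT, being listed at 0 in WT replicate 2, and so passed the filter only through NrasQ61K libraries. Without replicate 2 of both NrasQ61K groups, 0 melanocyte genes were called. Glycam1 is also a gene of the lactating mammary gland. The 9 genes of mammary epithelium and milk, Epcam the highest, summed to 2.76 to 5.99 FPKM in Tyr-NrasQ61K, 2.25 to 5.12 in MHCII-KO and 3.87 to 12.8 in WT libraries. Of the epithelial genes, Epcam (-0.64) and Krt18 (-1.07) were tested and not called for both groups (adjusted p = 0.266 and 0.235 from limma), and Krt8 and Krt14 reached 3.35 and 1.02 FPKM at most, both in WT. Among the milk protein genes, Csn1s1 was listed at 0 in all 9 libraries, Csn2, Wap and Lalba were at no more than 0.347 FPKM, and Csn3 was at no more than 1.40.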

How the data were processed

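The files hold RNA-seq of 9 libraries, 3 per group. The FPKM values deposited by the authors are Cufflinks estimates, and the submitters' processing notes list the tools TopHat, Cufflinks and Cuffdiff and the build mm10. Their versions, the annotation and the strand setting are not given in these sources. FPKM give no read numbers, so depth is known only relative to WT replicate 1, as the commonest ratio between low FPKM values, and was not clear for Tyr-NrasQ61K replicates 2 and 3 and MHCII-KO replicate 1. FPKM divide by library size, so a few very abundant genes can shift all others.

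Of 37819 entries, 18 with more than 1 value per library were dropped, and 27 unnamed columns were not used. Coordinates are from GENCODE M21. Groups followed the labels. The 16587 genes that reached 1 FPKM in 3 or more libraries were fitted by limma 3.58.1 in R 4.3.3 on log2(FPKM + 1), with group means, a mean-variance trend and no replicate term, for 4 contrasts. Ratios to Cdh5 were compared by exact permutation of libraries. The fit was tested on simulated data, and the permutation test on small sets of fixed values. Python 3.11.15, numpy 2.4.6, pandas 2.3.3 and matplotlib 3.10.9 made the tables and plots.

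The genes and the 12 gene lists were chosen with earlier results of these data known. Named genes were the 10 vessel genes, the up to 4 other genes of each vessel list with the smallest unadjusted p for both groups against WT, the 3 genes most alike to Glycam1, Cdh5 and Lyve1, and the highest gene of each other list. Ltb, Ltbr, Vegfc, Selp, Ackr1, Vwf, Sox18, Siglec1, the mammary genes, and Lep, Plin1 and Dct, called in their lists, were named besides, after their values were seen. Foxc2 was not matched. Alternatives were a pseudocount of 0.1, no filter, quantile normalization, median-ratio scaling, a replicate block, library weights, 7 libraries and leaving out each library. Restriction to protein-coding genes, Pecam1 as the reference of the ratio leaving out each library from the ratio and recounting the lists without libraries were added after seeing the data.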

Additional observations from a re-analysis of the deposited data

How the results depend on the processing

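No vessel gene was called with a pseudocount of 0.1, without a filter, after quantile normalization or median-ratio scaling, among protein-coding genes (a choice made after seeing the data), in the 7 libraries left without replicate 2 of both NrasQ61K groups, or with any library left out (0 of 10 in each). Under a replicate block, 2 genes were called in Tyr-NrasQ61K against WT (Kdr and Lyve1) and 7 in both groups against WT (all but Madcam1, Flt4 and Pdpn), where 5.39% and 16.1% of all genes were called. The replicate numbers do not pair the samples by any label. The 9 correlations between same-numbered libraries ran from -0.038 to 0.332, with 3 above 0.1. The 18 between differently numbered libraries ran from -0.27 to 0.162. In 11 of 18 cases a library correlated best with its own number among the 3 libraries of another group. These correlations do not settle whether the numbers pair the samples. The block stays an alternative because no label gives a pairing. With library weights, 8 genes were called in Tyr-NrasQ61K against WT, 9 in MHCII-KO against WT and 9 in both groups, where 30.6%, 44.7% and 45.5% of all genes were called. The weights ran from 0.197 for Tyr-NrasQ61K replicate 2 to 5.22 for MHCII-KO replicate 3. Over all genes, 66 were called for both groups, 34 of them higher. The count was 173 after quantile normalization (71 higher), 164 after median-ratio scaling (87 higher), 273 among 11902 protein-coding genes (76 higher), and 26 without WT replicate 3 to 98 without WT replicate 2 among fits that left out a library. The cause of these differences was not tested.

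Against WT, log2 fold changes turned sign only for Pdpn and Madcam1. Pdpn was 0.0974 in MHCII-KO and 0.0813 in both groups after quantile normalization, 0.15 and 0.15 after median-ratio scaling, 0.0229 in MHCII-KO and -0.12 in Tyr-NrasQ61K with library weights, and 0.0881 in MHCII-KO and 0.15 in both groups in the 7 libraries. With a library left out it ran from -0.22 to 0.22 in Tyr-NrasQ61K, from -0.19 to 0.0881 in MHCII-KO and from -0.14 to 0.0722 in both. Madcam1 in Tyr-NrasQ61K was -0.15 with library weights and ran from -0.10 to 0.19 with a library left out. In MHCII-KO against Tyr-NrasQ61K, Chst4 was -0.18 in the 7 libraries, and with a library left out it ran from -0.16 to 0.25 and Glycam1 from -1.26 to 0.41. Over all alternatives, Glycam1 in both groups ran from -2.57 to -1.45 and Chst4 from -1.50 to -0.60. Relative to Cdh5, Prox1 was -0.0204 with a pseudocount of 0.1 and -0.0836 in the 7 libraries, ran from -0.0123 to 0.13 with a library left out, and Flt4 was -0.0113 in the 7 libraries. The ratio of Glycam1 to Cdh5 ran from -1.84 to -1.42 with a library left out (exact permutation p = 0.0179 to 0.0714). The depth of each library in reads is unknown, so the counting error of weakly expressed genes such as Madcam1 and Chst4 is not known.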

Other observations

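The genes whose profile over the 9 libraries was most like that of Glycam1 were not vessel genes by name. They were Atg3 (an enzyme of autophagy), Rnase6 (a ribonuclease of myeloid cells) and the pseudogene Gm10247, with root mean square differences of 0.0836, 0.0926 and 0.0939 between the scaled profiles. For Cdh5 they were Clptm1, Rhbdd1 and Clcn4-2, at 0.117, 0.124 and 0.143, and for Lyve1 they were Taldo1, Prkaca and Mylip, at 0.0992, 0.107 and 0.11. Each is the best of 16587 genes over only 9 libraries, which share the 2 libraries of low vessel levels.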
